A study of Mus musculus with 14 samples.

Results

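The cytoplasmic ribosomal protein genes were examined in wild-type and UTX-deficient mouse blood progenitors. They were taken by symbol from the protein-coding genes of the mouse RefSeq table: Rpl or Rps followed by a digit, together with Rplp0, Rplp1, Rplp2 and Rpsa. Symbols of the S6 kinases, of Rps19 binding protein and of pseudogenes were dropped. The rule gave 88 of 21887 protein-coding genes, 34 of them named for the small subunit and 54 for the large subunit and its stalk. This split follows the symbols, and 11 of the 88 are paralogues or retrocopies, whose products need not be part of the ribosome. The rule used names only and no measured value.

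All libraries were ChIP-seq libraries from C57BL/6 bone marrow cells depleted of mature lineages with a depletion kit, a mixed population of stem and progenitor cells. WT libraries are labelled UTX WT and KO libraries UTX KO. UTX is the H3K27 demethylase encoded by Kdm6a on the X chromosome. The labels used here do not give the promoter or recombinase behind the deletion, nor the age or sex of the mice. Acetylation of lysine 27 of histone H3 (H3K27ac, Diagenode antibody) and its trimethylation (H3K27me3, Abcam antibody) were each measured in 2 WT and 2 KO libraries. UTX itself (Bethyl antibody) was measured in 2 WT libraries, and 1 IgG library from WT cells gave the background. Its title names it a control for BCOR, so the UTX background rests on another experiment's IgG, and the IgG control made for UTX was not analysed here. The labels do not say whether numbered libraries came from separate animals, so the p-values measure only the spread between libraries.

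Ribosomal proteins join ribosomal RNA to form the small subunit, which reads the messenger RNA, and the large subunit, which links amino acids. Their genes are short and strongly transcribed in most cells, and loss of a single copy of several of them causes Diamond-Blackfan anaemia in humans, a failure of red cell production. H3K27ac marks active promoters and enhancers, H3K27me3 is laid down by Polycomb complexes at silent genes, and UTX can remove the latter mark but also has roles that do not need its enzyme activity.

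The files list stretches of enrichment, called islands, with the number of reads in each. Values called rpm are island reads scaled to 1000000 island reads of the library. H3K27ac libraries held between 9330823 and 15256696 island reads, H3K27me3 libraries between 2347442 and 2743508, the UTX libraries 816567 and 1834418, and the IgG library 154029. UTX was not measured in KO, so its loss could not be read from UTX islands. Kdm6a kept H3K27ac in KO, with 187 and 109.5 CPM (counts scaled to library size) in WT and 168 and 162 CPM in KO (edgeR adjusted p 0.623), which is no check of a deletion. Markers of several blood lineages differed between the genotypes in the H3K27ac libraries. At the 19 erythroid marker genes the summed H3K27ac was 2584 and 2877 rpm in WT and 763 and 779 rpm in KO, with Ank1 without an island in any library. All 12 erythroid markers with a testable region fell, with a median log2 fold change of -1.75. Summed values at the 11 B cell markers, none of them without an island, were 425 and 377 rpm in WT against 846 and 1146 rpm in KO. Fewer cells of a type and less mark per cell cannot be told apart in these bulk libraries. The part of cell composition in the results on ribosomal protein genes was not tested.

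Promoter sequences of 5 members are printed: those of the 3 largest falls of H3K27ac, of the member nearest to no change (Rpl36al), and of Rpl27. Rpl27 is 1 of 3 members with a called rise, but the region that rose lies past its 3′ end and does not hold this promoter. Only members with a single annotated start were eligible, and Rpl32l, the member with the weakest region, was passed over. They come from RefSeq, build GRCm38.p6 (the assembly of mm10), and run 5′ to 3′ on the strand of the gene, with the annotated transcription start at base 251 of 300. Capitals mark CGGAAG or its reverse complement CTTCCG, the core sequence bound by ETS family factors. Rpl26 lies on the plus strand (chr11:68901316-68901615), Rps12 on the minus strand (chr10:23787160-23787459) and Rps4x on the minus strand (chrX:102189342-102189641). Rpl36al lies on the minus strand (chr12:69184018-69184317) and Rpl27 on the plus strand (chr11:101441995-101442294).
Rpl26: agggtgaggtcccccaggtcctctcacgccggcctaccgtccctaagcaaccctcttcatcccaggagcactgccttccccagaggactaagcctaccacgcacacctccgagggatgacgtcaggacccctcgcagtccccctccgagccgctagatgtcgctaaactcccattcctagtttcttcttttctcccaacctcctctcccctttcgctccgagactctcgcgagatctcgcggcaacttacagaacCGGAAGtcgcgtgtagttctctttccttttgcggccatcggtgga
Rps12: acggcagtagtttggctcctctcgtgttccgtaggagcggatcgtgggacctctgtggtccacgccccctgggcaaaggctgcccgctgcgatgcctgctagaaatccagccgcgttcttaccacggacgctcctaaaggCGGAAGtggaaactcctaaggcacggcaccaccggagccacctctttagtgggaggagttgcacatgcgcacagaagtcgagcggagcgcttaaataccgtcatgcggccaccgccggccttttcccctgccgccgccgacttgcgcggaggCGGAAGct
Rps4x: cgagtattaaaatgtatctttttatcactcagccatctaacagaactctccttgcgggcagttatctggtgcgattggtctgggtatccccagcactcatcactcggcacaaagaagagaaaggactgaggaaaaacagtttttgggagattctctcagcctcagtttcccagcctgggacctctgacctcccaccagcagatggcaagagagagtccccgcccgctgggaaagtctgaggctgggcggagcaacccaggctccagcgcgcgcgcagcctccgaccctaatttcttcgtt
Rpl36al: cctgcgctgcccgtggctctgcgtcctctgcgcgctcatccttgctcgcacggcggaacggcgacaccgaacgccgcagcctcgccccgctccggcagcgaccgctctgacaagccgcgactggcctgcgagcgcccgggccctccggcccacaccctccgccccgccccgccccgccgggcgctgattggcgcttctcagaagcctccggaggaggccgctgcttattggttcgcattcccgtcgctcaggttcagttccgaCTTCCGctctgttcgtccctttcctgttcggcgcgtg
Rpl27: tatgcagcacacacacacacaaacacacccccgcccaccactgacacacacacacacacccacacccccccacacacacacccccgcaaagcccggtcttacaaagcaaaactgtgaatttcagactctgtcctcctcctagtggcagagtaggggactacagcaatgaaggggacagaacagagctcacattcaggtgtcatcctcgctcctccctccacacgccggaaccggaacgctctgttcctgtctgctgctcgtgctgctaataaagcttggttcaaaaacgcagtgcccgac

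Of the 88 members 68 had at least 1 promoter in the RefSeq table. CGGAAG, searched on both strands in the 300 bases, was present in 43 of the 68 (63.2%), against 23.5% of all 17492 genes with a promoter and 35.5% of the 9542 genes with a tested H3K27ac region. Rps12 held 2 copies, Rpl26 and Rpl36al 1 each, and Rps4x and Rpl27 none. AAGATGG, the core of YY1 motifs, occurred in 14.7% of member promoters and 7.18% of all promoters. CACGTG (E-box) was found in 8.82% against 8.91%, AGATAA, recognised by the erythroid factor Gata1, in 8.82% against 11.2%, GGGCGG (GC box) in 58.8% against 49.2%, and TATAAA in 11.8% against 14.8%. Among genes with a tested H3K27ac region the shares were 8.51% for AAGATGG, 11.6% for CACGTG, 7.78% for AGATAA, 67.0% for GGGCGG and 8.67% for TATAAA. Against this background the member promoters lay on the opposite side for the last 3 of these motifs, compared with all promoters. These 5 motifs were also searched on both strands. A run of 5 pyrimidines beginning at the annotated start, the feature of messenger RNAs with a terminal oligopyrimidine tract, was present in 19 of 68 member promoters (27.9%) and in 4.64% of all promoters and 4.94% of those of genes with a tested region, read on the strand of the gene. The matches are descriptions of the sequence and not measured binding sites.

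H3K27ac was present at nearly every ribosomal protein gene in both genotypes. An island within 2 kb of either end of the gene was found in all 4 libraries for 82 of 88 members (93.2%), against 51.7% of all protein-coding genes. No member met the criterion for a lost island, present in both WT and neither KO library (1.32% of all genes), or for a gained one (1.12% of all genes). The annotated start lay inside an H3K27ac island in all 4 libraries for 61 of the 68 members with a promoter entry (89.7%, against 49.4% of genes). Rpl37rt, Rps23rg1, Rps27rt, Rpl10l and Rpl39l had no H3K27ac island in any library. Rpl10l and Rpl39l are testis-expressed paralogues of the X-linked Rpl10 and Rpl39. Rpl32l had an island at its ends in WT library 1 (10.2 rpm) and KO library 2 (24.0 rpm) only.

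Levels are rpm summed over the islands that met the gene ends. The median member had 77.8 and 73.7 rpm in the WT libraries and 68.7 and 69.8 rpm in the KO libraries. Over genes with H3K27ac in all 4 libraries the median of the mean rpm was 76.2 for members and 56.7 for all genes. Members are short, with a median gene length of 3179 bp against 17169 bp, so the windows at their ends often overlap. Rpl18 had the highest mean over the 4 libraries, with 148 and 143 rpm in WT and 278 and 292 rpm in KO. Rpl13a had 228 and 217 rpm in WT and 187 and 186 rpm in KO. Rpl18 and Rpl13a differed in opposite ways between genotypes: both KO libraries were above WT at Rpl18 and below WT at Rpl13a. Rpl24 had 173 and 154 rpm in WT and 169 and 168 rpm in KO. Rpl23a had 155 and 156 rpm in WT and 128 and 154 rpm in KO. The WT and KO values of Rpl24 overlapped, and those of Rpl23a did not. Among members with islands in all libraries, Rps4x was lowest, with 43.1 and 40.4 rpm in WT and 26.8 and 25.1 rpm in KO. Above it stood Rpl22l1 (39.6 rpm over 4 libraries), Rps21 (42.6 rpm), Rps26 (45.1 rpm) and Rps10 (46.8 rpm).

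To test the change, islands of the 4 H3K27ac libraries were merged into regions, and each gene took the strongest tested region at its ends. Region values are CPM after TMM scaling, and a region was called at an adjusted p under 0.05 in edgeR, adjusted over all 18820 tested regions of the genome. Of the 88 members 83 had a tested region, 82 distinct regions in all. H3K27ac was called lower in KO at 37 of the 83 members (44.6%), against 16.9% of the 11722 genes with a tested region. It was called higher at 3 (3.61%), against 10.8% of genes, and 43 members were not called. The median level was 83.34 CPM at member regions, 51.85 CPM at regions at gene ends and 31.76 CPM over all tested regions. Smaller changes can be called where reads are more numerous, and the part of this in the shares of calls was not tested. The median log2 fold change of the 83 was -0.30, with a range from -1.17 to 1.22, and that of all genes was -0.05. The value was negative at 76 of the 83 members (91.6%), against 55.8% of all genes. Both KO libraries lay below both WT libraries at 68 members (81.9%; 40.4% of all genes) and above both at 5 (6.02%; 29.7% of all genes). The individual changes were small: 1 member was more than 2-fold lower, and the smallest called fall was -0.29 on the log2 scale. The median standard error (SE) was 0.10, less than the called changes.

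**Figure D1:**
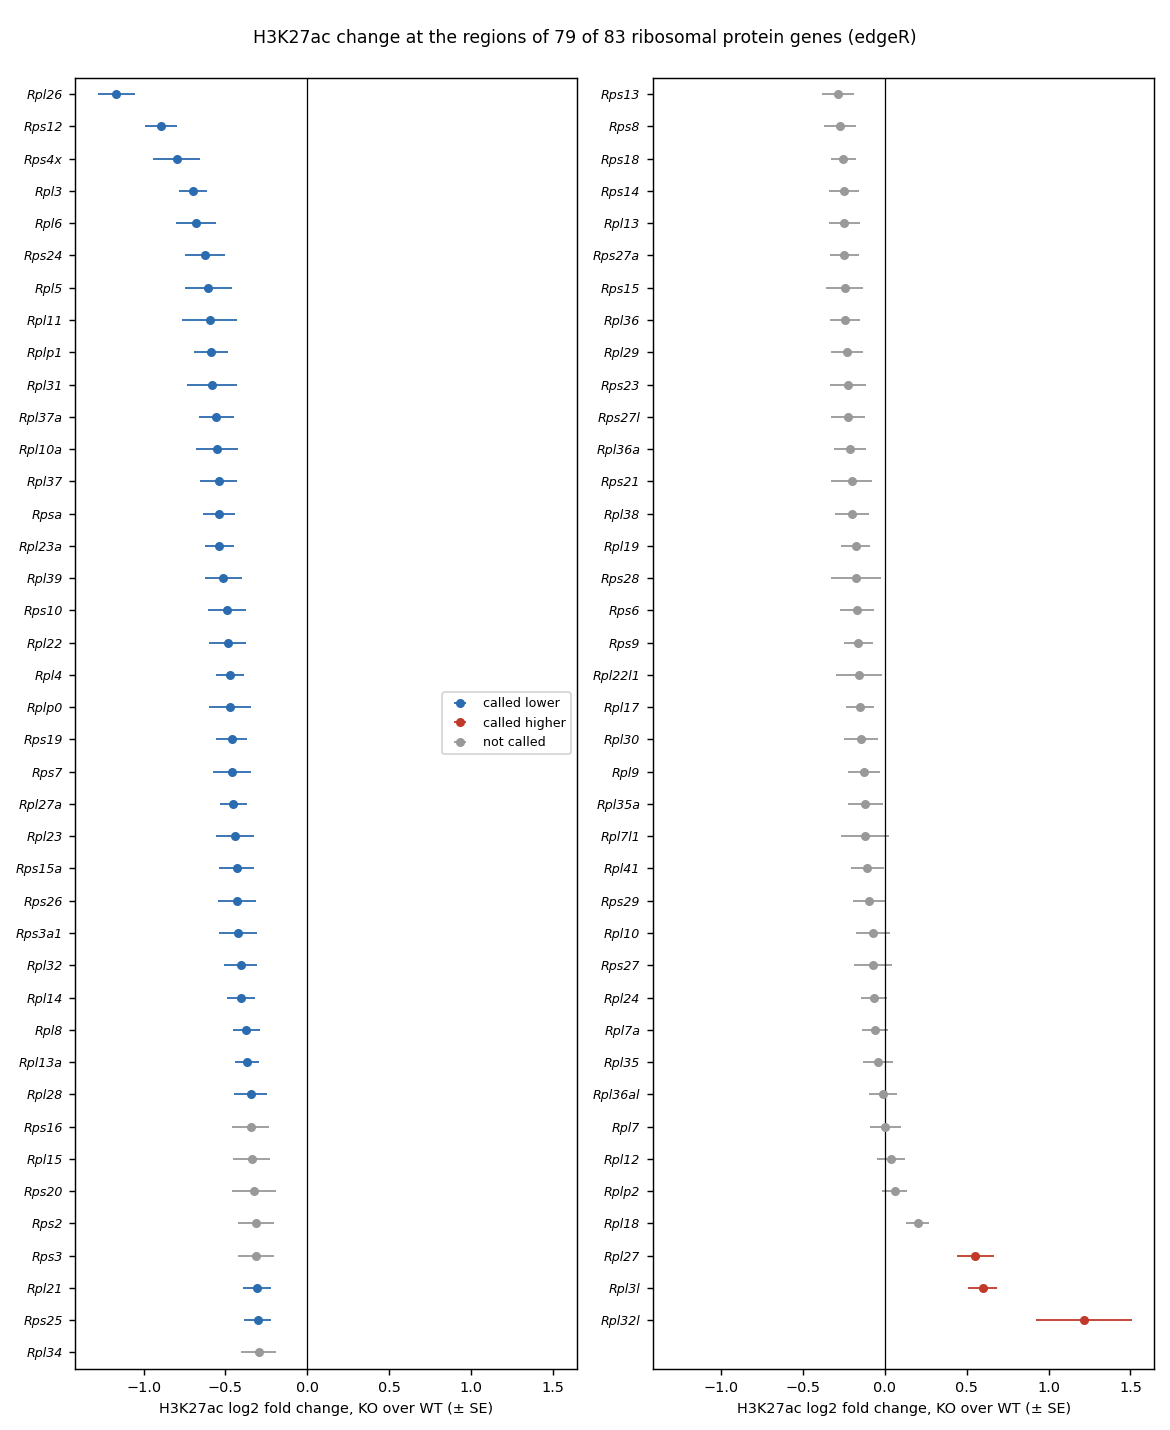
H3K27ac log2 fold change, KO over WT (x axis, point with SE from edgeR, 2 libraries per genotype), for 79 of the 83 ribosomal protein genes with a tested region (y axis), ordered from the largest fall to the largest rise. The 34 called falls shown (blue) fill most of the left panel, 3 called rises (red) stand at the foot of the right panel, and 72 of the 79 values are below 0. Of all genes with a tested region, 16.9% were called lower, 10.8% were called higher and 55.8% had a value below 0.

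The count of called falls rested on all 4 libraries. Without WT library 1, WT library 2, KO library 1 or KO library 2 it was 17, 14, 22 and 13, while the median stayed between -0.30 and -0.27. Rpl26, Rps12, Rps4x, Rpl3, Rplp1, Rpl23a, Rpl4 and Rpl3l were called in all 4 of these fits. Scaling to total island reads without TMM gave 20 called falls and 4 rises, with a median of -0.19. That scaling moved the median of all regions to 0.12 (log2), and relative to it the median of the members was -0.31. It also changed the split of all called regions, from 2631 lower (14.0%) and 2258 higher (12%) to 2069 lower and 3268 higher.

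The called length of islands moved with these values. A region's reads are summed over the islands called in each library, and at the 37 members called lower the median ratio of covered length, KO over WT, was 0.833. Both KO libraries covered less than both WT libraries at 15 of those 37 and at 3 of the 43 members not called. Over all 83 members this was so at 18 (21.7%), against 20.5% of all genes, and the reverse at 8 (9.64%), against 22.0%. With reads per covered length in the same edgeR test, 0 members were called in either direction, beside 1.57% of genes called lower and 0.623% called higher. At an unadjusted p under 0.05, 11 members were lower (11.5% of genes) and 1 was higher (6.4% of genes) on this scale. DESeq2 was run on whole regions only, where it called 32 members lower and 3 higher, beside 2446 lower and 2094 higher of all 18820 regions. On the scale per covered length, 63 of the 83 members were negative (57.9% of genes), 62 of them among the 76 that were negative on whole regions, and the median was -0.20 against -0.07 for all regions. Among the lowest members per covered length were Rpl13 (-0.69), Rps20 (-0.66) and Rpl3 (-0.60), and Rpl3 had the smallest adjusted p of edgeR, 0.116. Across the 83 members the rank correlation (Spearman) between the 2 scales was 0.117, a description over genes that share the same 4 libraries.

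**Figure D2:**
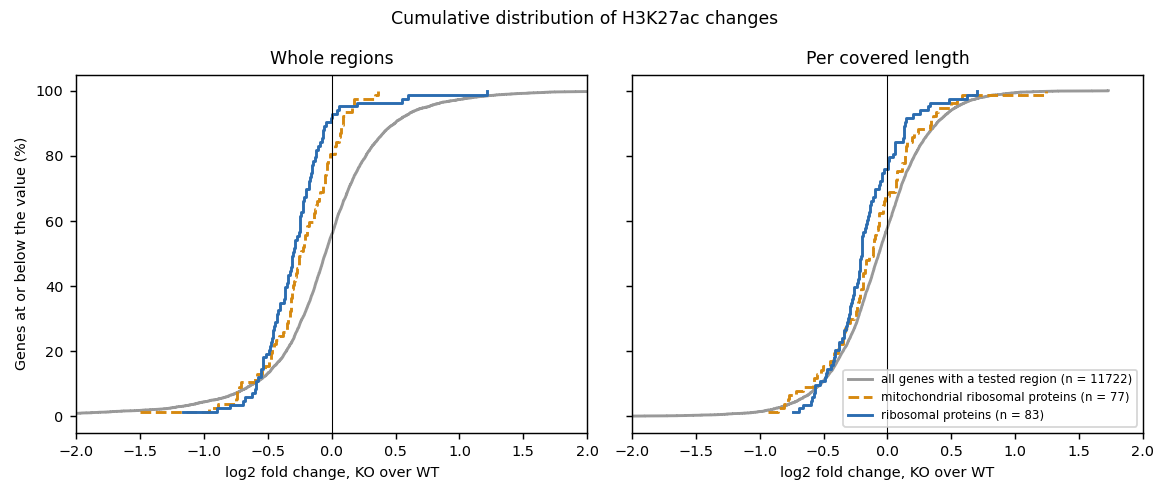
Cumulative share of genes (y axis, %) at or below a given H3K27ac log2 fold change, KO over WT (x axis), for whole regions (left) and reads per covered length (right), for 83 ribosomal protein genes, 77 mitochondrial ribosomal protein genes and 11722 genes with a tested region. On the left the ribosomal protein curve crosses 0 at 76 of 83 genes and on the right at 63 of 83, and it lies left of the grey curve through the middle of both panels.

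Among members named for the small subunit, H3K27ac fell at 13 of 32 tested genes (40.6%) and rose at none, against 16.9% and 10.8% of all genes. All 32 values were negative (median -0.31), against 55.8% of all genes with a tested region. Rps12 had the largest fall of the group. Its region (chr10:23778401-23790200) met no other gene, and held 139 and 131 CPM in WT and 76.0 and 68.6 CPM in KO, a fall of 46.3% (log2 fold change -0.90, SE 0.10, edgeR adjusted p 0.00115). The genotypes did not overlap, and covered length went from 11.8 and 10 kb to 8.8 and 8.4 kb. Per covered kb, Rps12 held 11.8 and 13.1 CPM in WT and 8.63 and 8.17 CPM in KO, again without overlap.

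Rps4x, the X-linked gene of a small-subunit protein with a Y-linked copy in humans, came next. Its region (chrX:102184601-102190200) held 47.3 and 46.8 CPM in WT and 28.2 and 25.9 CPM in KO (log2 fold change -0.80, SE 0.14, edgeR adjusted p 0.00795). The WT libraries were nearly equal and both KO libraries were lower, while covered length went from 5.6 and 5.2 kb to 3.0 and 4.0 kb. Per covered kb the Rps4x values overlapped, at 8.44 and 9.01 CPM in WT and 9.40 and 6.47 CPM in KO.

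Rps24, a Diamond-Blackfan gene, had 61.2 and 65.7 CPM in WT and 42.9 and 39.4 CPM in KO (log2 fold change -0.62, edgeR adjusted p 0.0103). The genotypes were apart, but the call was lost without WT library 2 and without KO library 2 (highest adjusted p 0.0669). Rpsa, which codes for a small-subunit protein also known as a laminin receptor, held 118 and 113 CPM in WT and 83.8 and 74.8 CPM in KO (-0.54, adjusted p 0.00836 in edgeR). The Rpsa call was lost without WT library 1 (adjusted p 0.0523), and its sign turned per covered length (0.13). Rps19, the gene most often mutated in Diamond-Blackfan anaemia, held 150.0 and 140.1 CPM in WT and 99.7 and 111 CPM in KO (-0.46, edgeR adjusted p 0.0124). Its call was lost without WT library 1 or KO library 1 (highest adjusted p 0.0749). Called small-subunit genes also included Rps3a1, Rps7, Rps10, Rps15a, Rps25 and Rps26, from -0.49 (Rps10) to -0.30 (Rps25). All of these further calls were lost without TMM, and those of Rps25 and Rps26 also with DESeq2. Per covered length the sign turned at Rps3a1 (0.04) and Rps15a (0.13). Rps6, whose product is phosphorylated by the S6 kinases, had 85.5 and 76.5 CPM in WT and 71.3 and 72.4 CPM in KO, and was not called (edgeR adjusted p 0.277).

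Among members named for the large subunit, stalk included, H3K27ac fell at 24 of 51 tested genes (47.1%) and rose at 3 (5.88%), with a median of -0.29. The shares of all genes were 16.9% lower and 10.8% higher. Rpl26 showed the largest fall of all members. In human cells its product also binds the messenger RNA of p53 and raises its translation. The region (chr11:68893201-68909400), which also meets the end of Rnf222, held 102 and 105 CPM in WT and 43.0 and 49.4 CPM in KO. The genotypes were far apart, and the fall was 55.4% (edgeR adjusted p 0.00074, log2 fold change -1.17, SE 0.11). Covered length shrank along with it, from 14.0 and 13.0 kb in WT to 3.4 and 5.6 kb in KO. Per covered kb the order turned, with 7.30 and 8.06 CPM in WT and 12.7 and 8.82 CPM in KO (log2 fold change 0.48, edgeR adjusted p 0.342).

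Rpl3, which codes for a protein near the peptidyl transferase centre, kept its covered length, 15.4 and 14.2 kb in WT and 13.4 and 14.2 kb in KO. Its region (chr15:80069201-80084600) held 140.2 and 146 CPM in WT and 85.2 and 91.5 CPM in KO, a fall of 38.4% (log2 fold change -0.70, SE 0.09, edgeR adjusted p 0.00197). On both scales the KO libraries of Rpl3 lay below the WT libraries, with 9.11 and 10.3 CPM per covered kb in WT and 6.36 and 6.45 in KO. Rpl6 held 67.3 and 77.8 CPM in WT and 44.1 and 46.5 CPM in KO (-0.68, edgeR adjusted p 0.00772). The call at Rpl6 was lost without WT library 2 (adjusted p 0.0513).

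Rpl5 and Rpl11, whose products bind 5S ribosomal RNA and restrain the p53 inhibitor Mdm2 when ribosome assembly fails, both fell. Rpl5 held 58.8 and 72.6 CPM in WT and 41.0 and 45.8 CPM in KO (log2 fold change -0.60, SE 0.14, edgeR adjusted p 0.0222). Rpl11 held 68.6 and 73.6 CPM in WT and 54.8 and 39.1 CPM in KO (-0.60, SE 0.17, edgeR adjusted p 0.0404). The groups did not overlap at either gene, but the Rpl5 call was lost in 2 of the 4 fits without a library and the Rpl11 call in 3. Covered length at Rpl5, which shares its region with Dipk1a, was 4.8 and 12 kb in WT and 3.4 and 4.8 kb in KO. Per covered length its sign turned (0.25), while that of Rpl11 did not (-0.28).

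Rpl31, Rpl37a and Rpl10a completed the 12 largest falls. Rpl31 held 108 and 114 CPM in WT and 85.9 and 62.4 CPM in KO (-0.58, edgeR adjusted p 0.0310), in a region of 21.0 kb shared with Tbc1d8. Its KO libraries differed from each other more than its WT libraries did. Rpl37a held 74.1 and 76.5 CPM in WT and 49.1 and 53.5 CPM in KO (-0.56, edgeR adjusted p 0.0108). Rpl10a held 84.8 and 71.3 CPM in WT and 55.8 and 50.3 CPM in KO (-0.55, edgeR adjusted p 0.0203), in a region shared with Fance and Tead3, and its sign turned per covered length (0.06). Without WT library 1 the Rpl31 and Rpl10a calls were lost, and without WT library 2 those of Rpl31 and Rpl37a. The Rpl37a call was also lost without KO library 1, and the Rpl31 and Rpl10a calls without KO library 2.

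**Figure D3:**
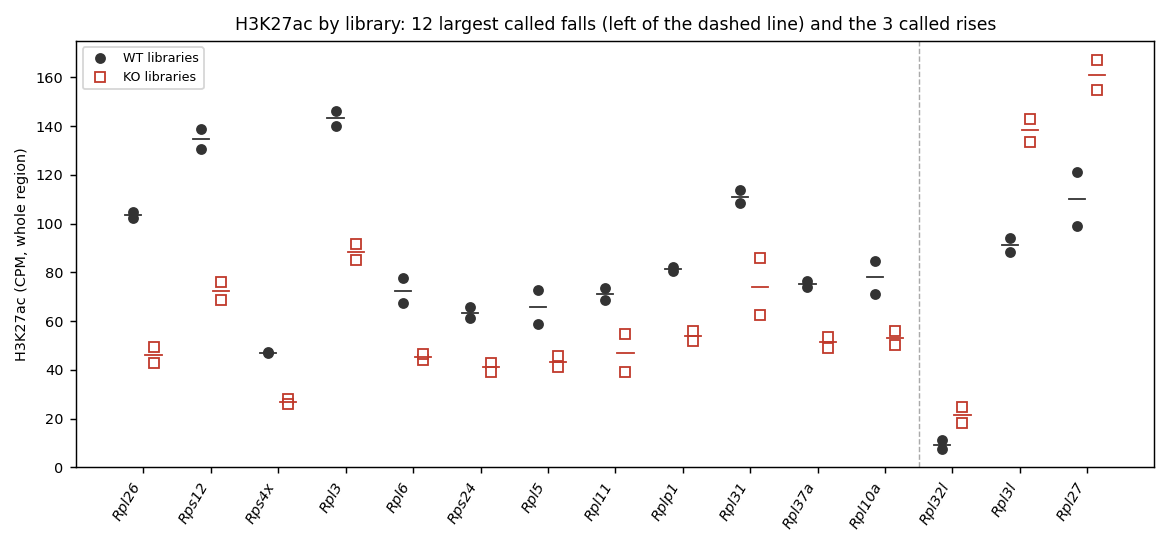
H3K27ac of the whole region (y axis, CPM) in each WT library (filled circles) and KO library (open squares) for the 12 members with the largest called falls and the 3 with a called rise (x axis), with short lines at the mean of 2 libraries. At Rpl26 the WT libraries sit at 102 and 105 CPM and the KO libraries at 43.0 and 49.4 CPM, and the genes were taken among those whose genotypes do not overlap.

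The stalk, which recruits translation factors to the large subunit, is built on Rplp0 with Rplp1 and Rplp2 attached. Rplp1 held 82.1 and 80.7 CPM in WT and 56.0 and 52.1 CPM in KO (log2 fold change -0.59, SE 0.10, edgeR adjusted p 0.00725). Rplp0 held 97.3 and 85.3 CPM in WT and 71.5 and 59.9 CPM in KO (-0.47, edgeR adjusted p 0.0343), a call lost in 3 of the 4 fits without a library. Rplp2 had 147 and 144 CPM in WT and 149.96 and 153 CPM in KO and was not called (0.06, edgeR adjusted p 0.605). All of them share their regions with other genes: Kif23 at Rplp1, Pxn and Gcn1 at Rplp0, and Pidd1, Pnpla2 and Cracr2b at Rplp2.

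All 4 X-linked members had negative values (55.8% of all genes with a tested region), and 2 were called lower (16.9% of such genes). Besides Rps4x, Rpl39 fell from 61.5 and 65.1 CPM to 44.5 and 44.3 CPM (-0.51, edgeR adjusted p 0.0168), a call kept only without WT library 1. Rpl36a had 115 and 105 CPM in WT and 91.0 and 98.8 CPM in KO (edgeR adjusted p 0.154), and Rpl10, which joins the large subunit late in its assembly, 90.9 and 80.1 CPM in WT and 83.1 and 79.3 CPM in KO (adjusted p 0.653). The Rpl10 values overlapped between genotypes.

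The 18 genes linked to Diamond-Blackfan anaemia had a median of -0.38, with 9 called lower (50.0%) and 1 (Rpl27) called higher (5.56%). Over all tested members the median was -0.30, with 44.6% called lower and 3.61% higher, beside 16.9% and 10.8% of all genes. Per covered length the median was -0.20 both for this list and for all members. Rpl26, Rps24, Rpl5 and Rpl11 had the largest falls among them, and those not called included Rps28, Rpl35a, Rps29, Rps27, Rpl35 and Rpl18, each with an absolute log2 fold change of 0.20 or less. Of 8 members whose products bind Mdm2 or otherwise restrain it, 5 fell (62.5%) and none rose. Their median was -0.45 on whole regions and -0.02 per covered length. This list shares Rpl26, Rpl5, Rpl11, Rps7 and Rps27 with the Diamond-Blackfan list. Whether either list differed from the other members was not tested.

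Of 8 paralogues or members of restricted expression, 5 had a tested region, and their median was -0.12. None of the 5 was called lower (16.9% of all genes) and 1, Rpl3l, was called higher (10.8% of all genes). With 5 genes these counts cannot say whether paralogues differ from all genes. Rps27l, induced by p53 in human cells, had 67.3 and 66.2 CPM in WT and 56.2 and 58.1 CPM in KO (edgeR adjusted p 0.165). Rpl22l1, the paralogue that can replace Rpl22, had 47.3 and 43.4 CPM in WT and 43.2 and 38.0 CPM in KO (adjusted p 0.449 in edgeR). Rpl22 itself fell from 70.2 and 65.3 CPM to 47.6 and 49.1 CPM (-0.49, edgeR adjusted p 0.0192), a call lost without any 1 of the 4 libraries. Whether Rpl22 and Rpl22l1 differed in their change was not tested. Rpl7l1 (adjusted p 0.588) and Rpl36al (adjusted p 0.949) were not called by edgeR, and their genotypes overlapped. Without paralogues and retrocopies, 77 tested members gave 37 falls (48.1%) and 1 rise (1.3%), beside 16.9% and 10.8% of all genes.

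The 3 called rises lay in regions that did not hold the annotated start of the member. Among the 63 tested members with a promoter entry, the tested region held a start at 60, and of these 28 were called lower (46.7%, against 16.6% of the 7820 genes of the same kind) and 0 higher (9.78% of such genes). This split by the start was chosen after the values were seen. Rpl27 is annotated at chr11:101442245-101445596, and its tested region (chr11:101446201-101468800) began past its 3′ end and met Ifi35, Vat1 and Rnd2. This region held 121 and 99.0 CPM in WT and 167 and 155 CPM in KO (0.55, SE 0.11, edgeR adjusted p 0.0132). The region at the 5′ end of Rpl27 had the opposite sign, -0.42, and was not called (adjusted p 0.0544).

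Rpl3l is the paralogue of Rpl3 found in skeletal and heart muscle. Its region (chr17:24734001-24747000) covered the 3′ part of the gene and an end of Msrb1, and held 88.5 and 94.1 CPM in WT and 134 and 143 CPM in KO (0.60, SE 0.09, edgeR adjusted p 0.00392). Rpl32l is annotated at chr10:20208439-20209030, beside its region (chr10:20202801-20208000), which held 11.2 and 7.44 CPM in WT and 18.2 and 24.8 CPM in KO (1.22, SE 0.29, edgeR adjusted p 0.0229). It was the weakest of the members' regions, and its call was lost without WT library 2 or KO library 2 (highest adjusted p 0.113).

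At Rpl18, the member with the highest rpm, the size of the difference depended on the stretch read. The islands that met its ends spanned 9.0 and 11.6 kb in WT and 18.6 and 18.8 kb in KO, and the higher rpm there in KO came with this greater length. Over the whole merged region of 21.2 kb, shared with Car11, Dbp, Sphk2, Fam83e and Spaca4, it held 258 and 259 CPM in WT and 292 and 301 CPM in KO. That difference was not called (log2 fold change 0.20, edgeR adjusted p 0.0788).

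Neighbours limit what a region says about a single gene, since 55 of the 83 tested members share theirs with another protein-coding gene. The 28 members alone in their region, an alternative added after the values were seen, had a median of -0.43. Of these, 17 were called lower (60.7%) and 1 (Rpl32l) higher (3.57%). The 55 sharing a region had a median of -0.25, with 20 lower (36.4%) and 2 higher (3.64%). Over all genes 16.9% were lower and 10.8% higher. All genes were not split in this way, and the difference between the 2 sets of members was not tested. Retrocopies elsewhere in the genome can also take or give reads, and how reads with several matches were treated is not given in the sources used here.

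UTX islands were found at most ribosomal protein genes. In both WT libraries, and with no IgG island, UTX lay at the ends of 67 of 88 members (76.1%), against 34.5% of all genes. Among genes with H3K27ac in both WT libraries the share was 67 of 82 members (81.7%) and 62.5% of genes. No member met an IgG island (0.621% of all genes). The annotated start lay within a UTX island of both libraries for 49 of 68 members (72.1%, against 32.5%). When an island had to cover at least 50% of a window, 7 members remained (4.67% of genes). UTX islands of library 1 were often too short for this, as at Rps14 (1.6 kb, with windows of 2 kb either side of a gene end). The count under this rule therefore depends on island width and cannot say whether the overlaps were marginal.

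Rps18, whose protein sits in the head of the small subunit, had the highest UTX level, 351 rpm in WT library 1 and 222 rpm in library 2. Rpl24 had 272 and 201 rpm, and Rpl37 277 and 131 rpm. Library 1 was the higher of the pair at these genes, while library 2 was higher at Rpl13a (170.2 and 221 rpm) and Rpl23a (105 and 276 rpm). UTX was found in library 2 alone at 11 members and in library 1 alone at 3, among them Rpl3l and Rpl39. The 7 members without UTX in either library were the 5 without H3K27ac, Rpl32l and Rps28. Over the 67 occupied members the median UTX level was 87.8 rpm, against 81.4 rpm over all occupied genes.

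Calls were made both at members with UTX and at the 16 tested members outside that set. H3K27ac fell at 31 and rose at 1 of the occupied members, with a median of -0.31. It fell at 6 and rose at 2 of the others, with a median of -0.24, and the difference between the sets was not tested. Over all occupied genes the median was -0.07, with 18.8% called lower, and over all genes not occupied it was 0.01, with 13.6%. Of the 6 members with the most UTX, Rps18 and Rpl24 were not called, while H3K27ac fell at Rpl37 (-0.54), Rpl13a (-0.37), Rpl23a (-0.54) and Rpl3 (-0.70). Rpl26, with the largest fall, had 53.9 and 25.6 rpm of UTX. Across 83 members Spearman's rho between mean UTX and the H3K27ac change was 0.0232, a description over genes measured in the same libraries.

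**Figure D4:**
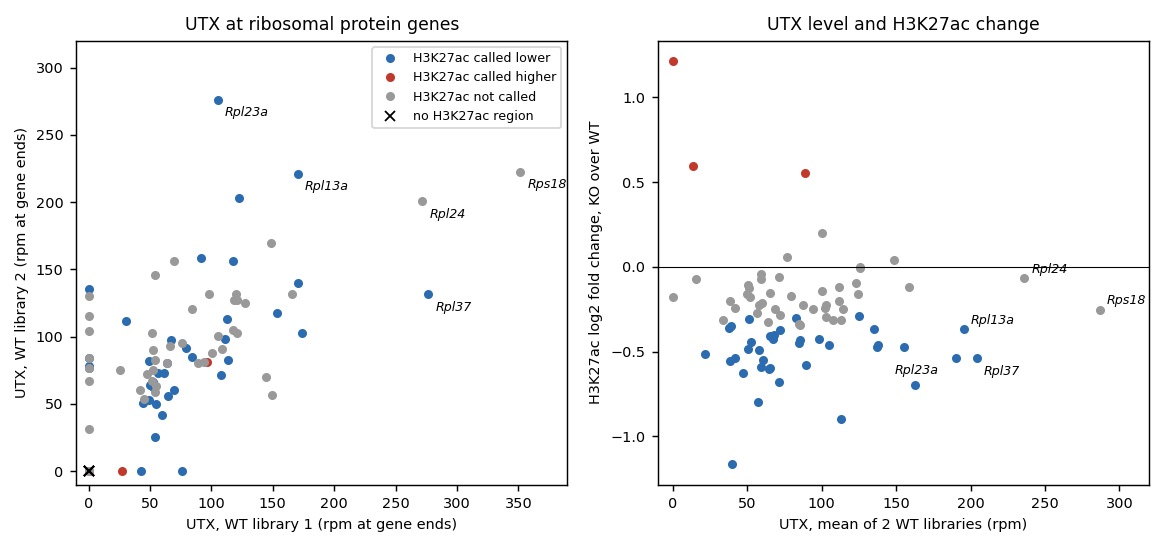
Left, UTX at the gene ends (rpm) in WT library 1 (x axis) against WT library 2 (y axis) for the 88 ribosomal protein genes, coloured by the H3K27ac call. Right, mean UTX of the 2 WT libraries (x axis, rpm) against the H3K27ac log2 fold change, KO over WT (y axis), for 83 genes, where Rps18 has the highest UTX (287 rpm) with a change of -0.25 and called genes are spread along the axis.

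Members with and without CGGAAG in the promoter were compared because the study concerns ETS and GATA programmes. H3K27ac fell at 18 of 42 tested members with the motif (42.9%) and rose at none, with a median of -0.31. It fell at 10 of 21 without the motif (47.6%) and rose at 3 (14.3%), with a median of -0.25. Both shares of falls lay near the 44.6% of all tested members, beside 16.9% of all genes called lower and 10.8% called higher. The difference between members with and without the motif was not tested, and the 3 rises are those whose regions lie away from the start.

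H3K27me3 was rare at ribosomal protein genes. An island met the gene ends in at least 1 library at 14 of 88 members (15.9%), against 33.4% of all genes, and in all 4 libraries at 5 (5.68%, against 19.5%). Among these were Rpl10a and also Rps23rg1 and Rps27rt, which had no H3K27ac. None of the 68 members with a promoter entry had its start inside an H3K27me3 island of all 4 libraries (14.2% of genes). No member lost H3K27me3 in KO (1.79% of all genes) or gained it (0.37%).

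Most of this mark belonged to islands shared with neighbours. Rpl22 had H3K27me3 at its ends in WT library 2 (195 rpm), KO library 1 (350.2 rpm) and KO library 2 (525 rpm) but not in WT library 1. Over its whole region, shared with Chd5, the values were 331 and 372 CPM in WT and 303 and 366 CPM in KO, and overlapped (-0.07, edgeR adjusted p 0.949). Rps15 likewise lacked an island in WT library 1 and had 186, 191 and 288 rpm in the other libraries, in a region shared with Apc2 and 2310011J03Rik. Rps27rt, which has no H3K27ac, held 95.1 and 125 rpm in WT and 129 and 156 rpm in KO. At Rps27rt both KO libraries were above both WT libraries, but the 4-library region was not called and overlapped (edgeR adjusted p 0.825). Rps23rg1 held 31.0 and 41.5 rpm in WT and 35.4 and 30.3 rpm in KO.

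At Rpl10a, H3K27me3 was 40.5 and 35.0 rpm in WT and 63.5 and 25.5 rpm in KO, and the genotypes overlapped. A further 7 members had an island in 1 or 2 libraries: Rpl23a in WT library 1, Rpl34 and Rpl19 in WT library 2, Rps7 in KO library 2, Rps4x and Rpl26 in WT library 1 and KO library 2, and Rpl36a in WT library 2 and KO library 2. Of 8 members with a region tested for H3K27me3, edgeR called 0. Among all 4789 genes with such a region 1 was called lower (0.0209%) and 0 higher, and of 6771 regions 1 was called (0.0148%). At an unadjusted p under 0.05 there were also none, the smallest being 0.198 at Rpl23a, and DESeq2 called 0 of the 8.

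**Figure D5:**
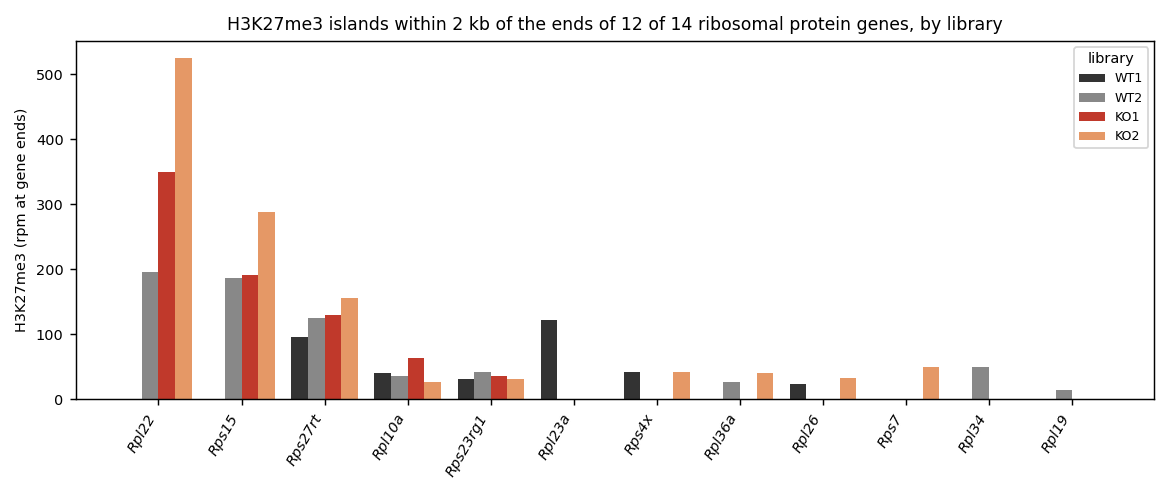
H3K27me3 (y axis, rpm over islands that meet the gene ends) in each of 2 WT and 2 KO libraries (bars) for 12 of the 14 ribosomal protein genes with an island in any library (x axis); no bar means no island called. Of these, 3 genes have a bar in all 4 libraries, and at Rpl22 the bars go from none in WT library 1 to 525 rpm in KO library 2.

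Other gene groups of protein synthesis gave a scale for these counts, again beside 16.9% of all genes called lower and 10.8% called higher. Mitochondrial ribosomal protein genes, whose products build a separate ribosome, had 77 genes with a tested region. H3K27ac fell at 13 of them (16.9%) and rose at none (median -0.24, largest called change -1.50 at Mrpl52). Of the 77 values 62 were negative, beside 55.8% of all genes. The median WT level over all 78 of these genes was 43.75 rpm, against 76.92 rpm over the 88 members. Changes of a given size are harder to call at lower read counts, so shares of calls in these groups are not on equal terms. Translation factors fell at 9 of 29 (31.0%) and rose at none (median -0.25, Eif4b -0.80), and ribosome biogenesis genes fell at 11 of 34 (32.4%) and rose at 3 (median -0.13, Nolc1 -0.81). Proteasome subunits, a housekeeping group outside translation, fell at 7 of 38 (18.4%) and rose at 2 (median -0.14, Psmd10 -1.22). Fau and Rack1 code for ribosomal proteins with other names. Rack1 fell (-0.27, edgeR adjusted p 0.0463) and Fau was not called (0.17, adjusted p 0.169). Whether ribosomal protein genes differed from these groups was not tested.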

How the data were processed

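ChIP-seq islands were called per library with SICER on mm10, per the submitters' processing notes, which give no version, aligner, threshold or control. The deposited files hold whole-number counts of reads per island. Reads outside islands were not used, and depth counts island reads on the autosomes, X and Y. 11 of 14 samples were used; 2 inputs and a second IgG library were not analysed here.

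Genes and promoters came from RefSeq tables of GRCm38.p6. The gene table gives no strand, so windows of 2 kb either side of both gene ends were used, with an overlap of at least 1 bp. rpm is island reads scaled to 1000000 island reads of a library. For each mark, overlapping islands from any library were joined, and regions with an island in all 4 libraries (18820 for H3K27ac, 6771 for H3K27me3) were tested with edgeR 4.0.16 (R 4.3.3, TMM, glmQLFTest, two-sided, Benjamini-Hochberg over all regions). A gene took its strongest tested region. SE was derived from the F statistic. In simulated counts 81% of 2-fold and 100% of 4-fold H3K27ac changes were recovered, with 9 of 18620 unchanged regions called. For H3K27me3 25% and 92% were recovered, with 4 of 6571. Every simulated region of a mark was given the same spread, and neither changes below 2-fold nor island calling were simulated. The recovery of the smaller changes called at most members is therefore not known.

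Counts and medians of members stand beside those of all genes. Named genes were the 12 largest called falls and all called rises, the 5 highest and lowest by H3K27ac, the 5 highest by UTX, members lacking H3K27ac or having H3K27me3, and members of the stalk, X-linked, paralogue and Diamond-Blackfan lists. Further members are named after their values were seen, and some genes are not reported here by name. The members and lists were chosen with earlier results of these data known. Alternatives, including DESeq2 1.42.0, are given in the closing section. Counting error and the 2 libraries per genotype limit the precision.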

Additional observations from a re-analysis of the deposited data

How the results depend on the processing

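Reads outside called islands were not used here, 2 libraries per genotype give little information on spread, and regions are often shared with neighbouring genes. The median H3K27ac change of members was negative under every alternative run, while the counts of calls varied.

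For H3K27ac at members (37 lower, 3 higher, median -0.3042), leaving out 1 library gave 13 to 22 lower, 1 to 3 higher and medians from -0.2954 to -0.2684. Over all regions (2631 lower, 2258 higher) it gave 1369 to 1907 lower and 1227 to 1392 higher, with fewer libraries in each fit. Without TMM the members gave 20 lower and a median of -0.19. Per covered length they gave 0 lower, 0 higher and a median of -0.2015, and all regions gave 259 lower and 79 higher. Autosomes gave a median of -0.291 (35 lower, 3 higher), and members alone in their region, added after the values were seen, -0.4257 (17 lower, 1 higher). With islands in at least 2 libraries, 5225 regions were lower, with 34 members lower and 2 higher. DESeq2 gave 32 and 3, and at least 50 reads per library 37 and 3. Signs turned per covered length at 8 called members, the cause of which was not tested: Rps3a1 (0.0446), Rpl5 (0.252), Rps15a (0.1302), Rpsa (0.1294), Rpl14 (0.0568), Rpl26 (0.4807), Rpl23 (0.0037) and Rpl10a (0.056). The region of the 5′ end turned Rpl27 (-0.4241). The median level per kb of island was 10.82 rpm, beside 72.5 rpm at gene ends.

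For H3K27me3 at members (0 called, median -0.0155), the median turned without TMM (0.0995), with at least 50 reads (0.001), with windows of 1 kb (0.0419) and 5 kb (0.1044) and at the 5′ end (0.2156), and lay between -0.177 and -0.0071 without 1 library. All regions (1 lower, 0 higher) gave 0 lower with islands in at least 2 libraries, 0 to 6 lower and 0 to 1 higher without 1 library, 9 higher without TMM, 3 higher per covered length, and 17 lower and 15 higher with DESeq2. With 50% of the window covered, 1 member lost H3K27ac, 1 gained H3K27me3 and 7 were UTX-occupied. Without 1 library, 0 to 2 members lost and 0 to 2 gained H3K27me3, and 67 to 78 were UTX-occupied.

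Deviations of same-numbered WT and KO libraries correlated at 0.0458 (H3K27ac) and -0.0521 (H3K27me3). With 2 libraries per genotype these values cannot say whether the replicate numbers pair the libraries. With a replicate block the members gave 37 lower and 3 higher, and all regions 2883 lower and 2615 higher for H3K27ac and 0 lower for H3K27me3.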
